A study of Homo sapiens with 9 samples.

Results

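The cytosolic ribosomal protein genes encode the proteins that, with ribosomal RNA, build the small (40S) and large (60S) subunits of the ribosome of the cytoplasm. They were chosen by symbol alone, as RPL or RPS followed by a number and, where present, A, X or L, together with RPSA, RPLP0, RPLP1 and RPLP2. This gave 84 of the 23619 genes in the files, 32 of the small and 52 of the large subunit. RPS27L, the RPS6K kinases and pseudogene symbols were left out. Of the members, 7 carry the symbol of a close relative of another member (among them RPL3L, RPL7L1, RPL10L, RPL22L1, RPL26L1 and RPL39L) and are called paralog-type here.

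The study asked whether loss of DIP2C, a candidate cancer gene, alters gene expression in RKO, a human colorectal cancer cell line. RNA from cells grown for 48 h was sequenced as 1 library each from parental RKO (2 libraries, parental 1 and parental 2), from clones E3 and C10, which were DIP2C-/-, and from 5 DIP2C+/- clones (A6-C9, A9-A12, F6-A7, G1-A5 and H9-A4). The clones carry a deletion within exon 9 of DIP2C made by gene targeting with an adeno-associated virus vector. Per the study, both of its DIP2C-/- clones were derived from the same DIP2C+/- clone by further targeting, so they share an ancestor clone. A targeted and selected clone with both DIP2C alleles intact was not analysed here, so genotype and cloning cannot be told apart. Each clone is 1 clonal line sequenced once. The study's text describes fewer DIP2C+/- clones than the labels do, the labels were followed, and the tests treat all clones as independent. Nothing in the labels says whether the parental libraries came from separate cultures, so p-values measure the spread between these libraries.

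The libraries held totals of 14772593 to 21486483 estimated counts. DIP2C itself was at 61.0 and 70.9 CPM (counts scaled to a common library size with TMM factors) in the parental libraries, at 17.4 and 22.8 in the DIP2C-/- clones and at 33.6 to 56.3 in the DIP2C+/- clones. The log2 fold change of DIP2C was -1.71 (SE 0.25, edgeR adjusted p = 0.0998) in DIP2C-/- and -0.60 (SE 0.20, adjusted p = 0.386) in DIP2C+/- clones. The edgeR fit thus did not call the targeted gene at 0.05. DESeq2's Wald test gave DIP2C an adjusted p of 7.94e-07 in DIP2C-/- clones, where it called 1.91% of all genes. Among 9 markers of colorectal epithelium, KRT18 (121 to 293 CPM), KRT8 and CDX2 were detected, while KRT19, KRT20, CDX1, VIL1 and CDH1 were under 1 CPM in every library and EPCAM reached at most 3.79 CPM. The 4 leukocyte markers were under 1 CPM in every library, and the summed level of 4 fibroblast markers was 3.42 to 4.65 CPM in parental and 1.48 to 4.45 CPM in clone libraries.

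Ribosomal protein genes are transcribed at high levels in growing cells, and their products are made in near-equal amounts because each ribosome holds 1 copy of most of them. In mammals most of these mRNAs begin with a C followed by a run of pyrimidines, the 5′ terminal oligopyrimidine (TOP) motif, through which mTOR signalling and the RNA-binding protein LARP1 set their translation. MYC promotes the transcription of many of them. An excess of free RPL5, RPL11 or RPL23 binds MDM2 and thereby stabilises p53.

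The start of the transcript is a feature that the choice by symbol did not use. In RefSeq promoter windows (GRCh38.p14), a C followed by at least 4 pyrimidines (C or T) was searched on the strand of the transcript with its first base within 10 bases of an annotated start. It was found in 57 of 66 matched members (86.4%) and in 37.4% of 27305 genes. With the C exactly at the annotated first base the shares were 71.2% and 5.14%. Genes for mitochondrial ribosomal proteins, which serve a separate ribosome, had shares of 34.8% and 8.70%. Among the paralog-type members with an entry, 1 of 4 had the motif, RPL22L1. The sequences below are shown because they contrast members with and without the motif, including those that the comparisons turn on. Each window runs from 10 bases before to 15 bases from the annotated start, in transcript orientation, with the pyrimidine run in capitals.
RPL22 (chr1:6199581-6199605, minus strand): cgctcacctcCCTTTCTaactccgc
RPL22L1 (chr3:170870181-170870205, minus strand): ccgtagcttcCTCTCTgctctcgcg
RPL26 (chr17:8383179-8383203, minus strand): gcgtgtagttCTCTTCCCTTTTgcg
RPL26L1 (chr5:172958719-172958743, plus strand): tccaggggtcggcgaacgaaacgcg
RPL7L1 (chr6:42879606-42879630, plus strand): gtgcggcgccgtagctaggagcgga
RPL36 (chr19:5690285-5690309, plus strand): cggcgccagcCCTTCCgccacggcc
RPL41 (chr12:56116623-56116647, plus strand): cttcgcctttCTCTCggccttagcg
RPS24 (chr10:78033853-78033877, plus strand): aatcgtggttCTCTTTTCCTCCTTg
RPS27 (chr1:153990752-153990776, plus strand): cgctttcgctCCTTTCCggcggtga
RPS4X (chrX:72277234-72277258, minus strand): ctccagccccaatttctacgcgcac
The windows of RPL26L1, RPL7L1 and RPS4X held no such run, which says only that these letters are not in this window. RPL26 and RPL26L1, whose proteins are near-identical, differ here in that only RPL26 starts with the run.

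The members lie on 21 chromosomes, with 12 on chromosome 19, 9 on chromosome 3 and 6 on chromosome 17. Of the 84 members, 79 passed the filter on low counts and were tested, and 78 had a mean of at least 50 CPM over the 9 libraries. The other 5, RPL10L, RPL39L and RPL3L among them, were under 1 CPM in each library. They were not all paralog-type, as 76 of the 77 remaining members were tested. RPL3L is known as a muscle form of RPL3 and RPL10L as a testis form of RPL10. Ribosomal protein genes have many processed pseudogenes that share reads with them. The 29 rows with pseudogene symbols held values equal to 0.913% to 1.56% of the members' sum, and reads placed on other copies could not be followed. RPL17, RPL36A and RPS10 overlap readthrough genes, and their values are uncertain for this reason.

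Per kilobase of transcript, the highest parental level was that of RPL7A, at 4977 CPM per kb. RPLP0 followed at 3193, RPS18 at 3117, RPL35 at 3041 and RPL7 at 2541 CPM per kb. RPL7A, RPL35 and RPL7 are large-subunit proteins, RPLP0 anchors the P stalk that recruits elongation factors, and RPS18 lies in the head of the small subunit. Among the tested members the lowest was RPL26L1, at 25.3 CPM per kb.

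Summed over all members, the share of the library total was 6.46% in parental 1 and 8.43% in parental 2. It was 6.57% in E3 and 6.84% in C10, while the DIP2C+/- clones had 6.39% (A9-A12), 6.60% (H9-A4), 7.11% (A6-C9), 7.44% (F6-A7) and 7.71% (G1-A5). Parental 2 was the highest of all libraries and parental 1 the second lowest, so the clones fell within or just below the range set by the parental libraries. Wilson 95% intervals on the whole reads behind these shares had half-widths of at most 0.0132 percentage points, which cover counting error only. The mean was 7.45% ± 1.40 (SD, n = 2) in parental RKO, 6.70% ± 0.19 (SD, n = 2) in DIP2C-/- and 7.05% ± 0.55 (SD, n = 5) in DIP2C+/- clones. The DIP2C-/- mean was lower by -0.746 percentage points (exact permutation test, two-sided p = 1), a test of 2 against 2 libraries that cannot go below 0.333. The DIP2C+/- mean differed from parental by -0.398 points (exact permutation p = 0.571, smallest possible 0.0476). The 7 clones together differed by -0.497 points (exact permutation p = 0.444, smallest possible 0.0278), and DIP2C+/- from DIP2C-/- by 0.348 points (exact permutation p = 0.429). Without parental 2 the first 3 differences were 0.241, 0.589 and 0.489 points, opposite in sign, so their direction rested on that library. In bulk RNA a share says nothing about RNA per cell, and fewer cells of a type cannot be told apart from less RNA per cell.

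**Figure D1:**
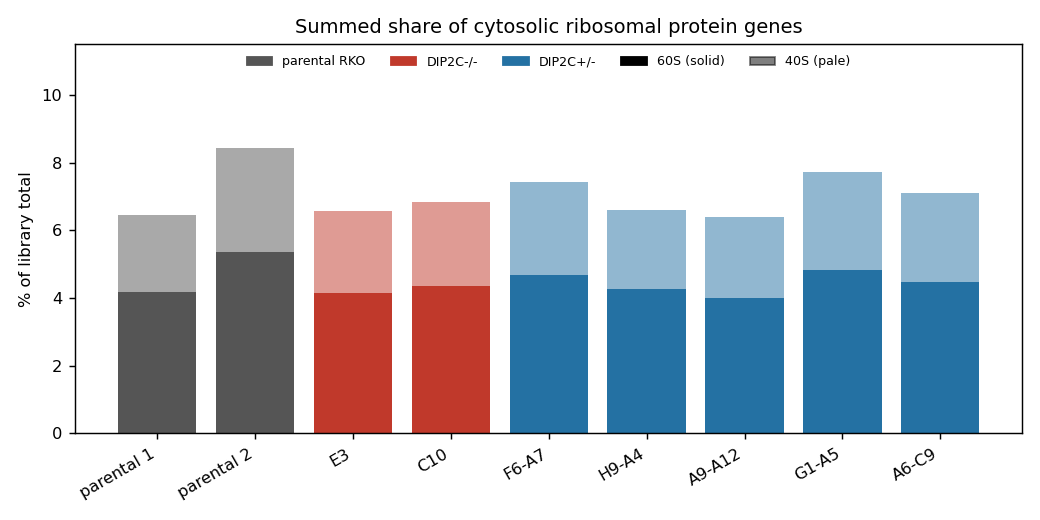
Share of each library's total taken by the ribosomal protein genes, in percent, as stacked bars for the 60S (solid) and 40S (pale) members, coloured by genotype. The tallest bar is parental 2 at 8.43%, and the 7 clones lie between 6.39% and 7.71%.

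The balance between the subunits varied little. Small-subunit members made up 35.4% to 37.5% of the members' sum in every library. Their share of the library was 2.29% and 3.06% in parental RKO, 2.41% and 2.48% in DIP2C-/- and 2.35% to 2.89% in DIP2C+/- clones. Large-subunit members took 4.17% and 5.37%, 4.15% and 4.36%, and 4.01% to 4.82%. Neither subunit differed between all clones and parental RKO beyond the spread (exact permutation p = 0.667 for 40S and 0.306 for 60S).

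Across the 79 tested members, no gene passed an adjusted p of 0.05 in DIP2C-/- against parental RKO, where 0.00644% of all 15532 genes tested did. The count was also 0 in DIP2C+/- against parental RKO (background 0.0966%), in all clones against parental RKO (background 0.180%) and in DIP2C+/- against DIP2C-/- (background 0%), all by edgeR's quasi-likelihood test. DESeq2's Wald test called 0 members in each of these comparisons too, with backgrounds of 1.91%, 1.24%, 1.96% and 0.0386%. At an unadjusted p under 0.05 there were 12 members (15.2%) in DIP2C-/-, against 12.7% of all genes. The corresponding counts were 6 (7.60%, background 11.6%) in DIP2C+/-, 9 (11.4%, background 13.4%) in all clones and 7 (8.86%, background 5.57%) between the genotypes. The comparisons with parental RKO share the same 2 control libraries.

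The members' fold changes leaned to one side, and this lean was described without a test. The median log2 fold change was -0.24 in DIP2C-/-, -0.07 in DIP2C+/- and -0.12 in all clones against parental RKO, where the medians of all genes were 0.02 in each. The median SE of a single member was 0.23, 0.19 and 0.18. Members lower than parental numbered 64 of 79, 50 of 79 and 56 of 79. The members higher than parental were 19.0%, 36.7% and 29.1%, against 51.8%, 52.2% and 51.8% of all genes. Without parental 2, which leaves 1 parental library assumed to vary like the clones, the medians were 0.01, 0.21 and 0.16, and 61 of 80 members were higher in all clones. Without parental 1 the medians were -0.41, -0.24 and -0.29. Between the knockout genotypes, 63 of 79 members were higher in DIP2C+/- than in DIP2C-/-, with a median of 0.10 (all genes 0.01, median SE 0.19). Among all genes 51.4% were higher in DIP2C+/- clones.

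**Figure D2:**
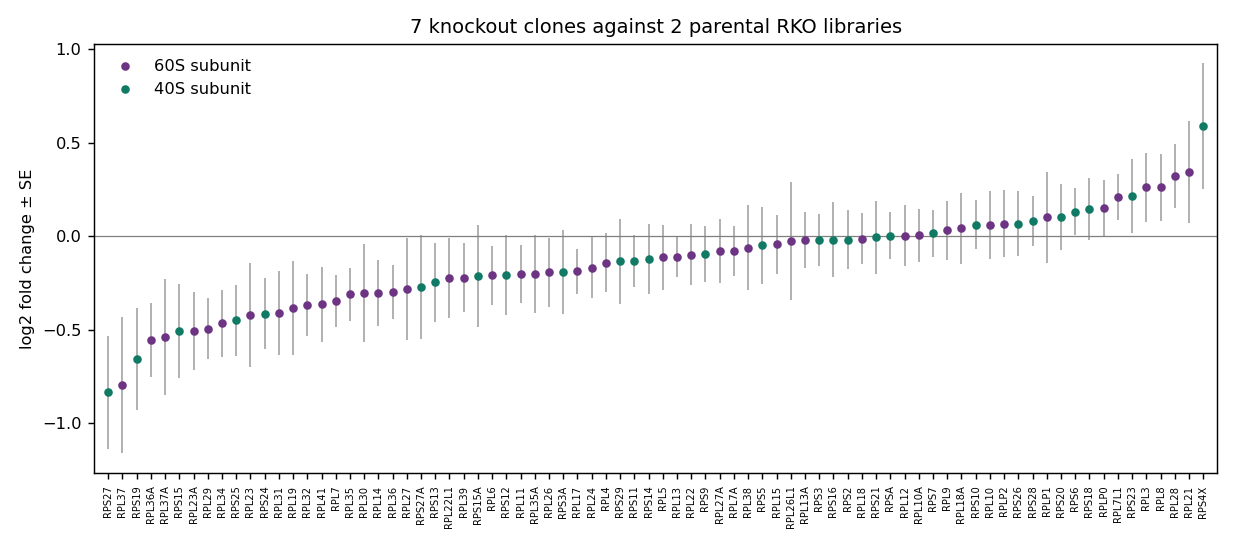
Log2 fold change of all 7 clones against parental RKO for 78 of the 79 tested members, ordered by size, with SE bars and colours for the subunits. Values run from -0.83 for RPS27 to 0.59 for RPS4X, and none passed an adjusted p of 0.05.

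Library by library, the parental libraries differed from each other by more than any pair of clones did. In parental 2, 73 of 79 members were higher than in parental 1, with a median log2 difference of 0.47, while the median of all genes was 0.00. The root mean square log2 difference over the members was 0.641 between the parental libraries and 0.218 to 0.487 between pairs of clones. Clones lay 0.243 to 0.487 from parental 1 and 0.397 to 0.695 from parental 2. Relative to the parental mean, the median log2 difference was -0.29 in E3 and -0.12 in C10. Among DIP2C+/- clones it was -0.25 (A9-A12), -0.17 (H9-A4), -0.09 (F6-A7), -0.00 (A6-C9) and 0.15 (G1-A5). G1-A5 was the clone with the most members above the parental mean, 58 of 79, and E3 the one with the fewest, 15 of 79. Members at least 2-fold from the parental mean were few in each clone, at most 1 of 79 (1.27%), against 7.44% to 14.4% of all genes. They were RPL41 in E3, RPL37 in H9-A4 and in A9-A12, all lower, and RPS4X in G1-A5, which was higher. The share of all genes was not matched for level, as only 2437 of the 15532 genes tested averaged 100 CPM or more. Over the 9 libraries those 2437 genes had a lower median SD of log2 CPM (0.204) than the members (0.257).

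**Figure D3:**
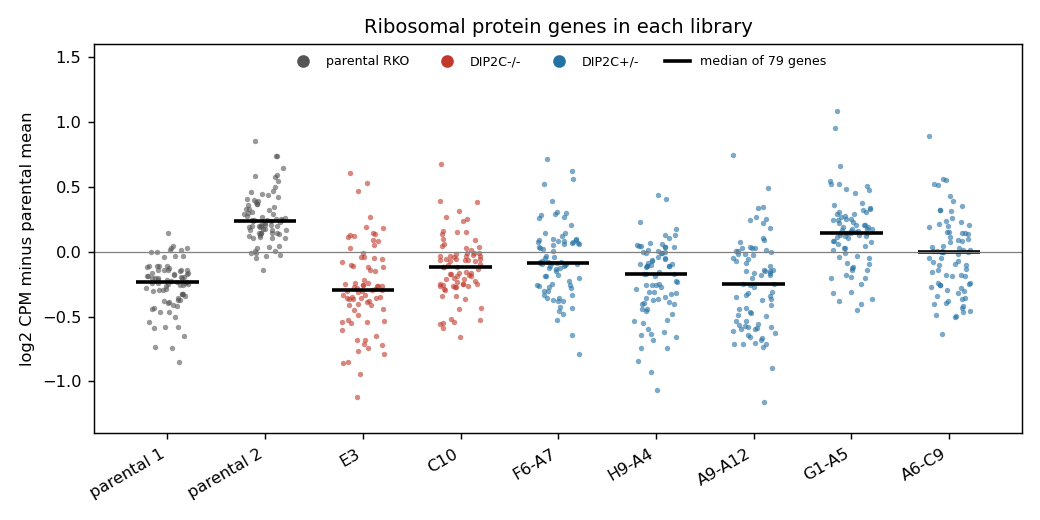
Log2 CPM minus the mean of the parental libraries for the 79 tested members in each library, with the median as a bar. The medians of the clones run from -0.29 in E3 to 0.15 in G1-A5, and the parental libraries lie apart by a median of 0.47.

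The gap between the parental libraries was wider for short members, but longer members also had it. Among members, 9 of 79 (11.4%) were at least 2-fold higher in parental 2, against 7.90% of all genes that differed that much in either direction. Among these were RPL23, RPL27, RPL37, RPL37A, RPS15, RPS15A, RPS19 and RPS27. RPL37 was 3.25 times, RPL37A 2.79 times and RPS27 2.77 times as high in parental 2 as in parental 1. For the 40 members with a transcript of at most 748 bases, their median length, the median gap was 0.54 on the log2 scale, and for the 39 longer ones 0.39. For other tested genes the median gap was 0.25 up to this length (308 genes) and -0.01 above it (12545 genes). By this annotated length, the longer members had a wider median gap than other genes up to 748 bases. The length is a median over annotated transcripts, for example 7072 bases for RPL14. Which transcripts these cells held was not measured, so the split by length is approximate. Across the members, which share these 2 libraries, Spearman's rho of the gap with length was -0.34, and across 12853 other genes it was -0.08. The part of library preparation or RNA length in the differences between genotypes was not tested.

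**Figure D4:**
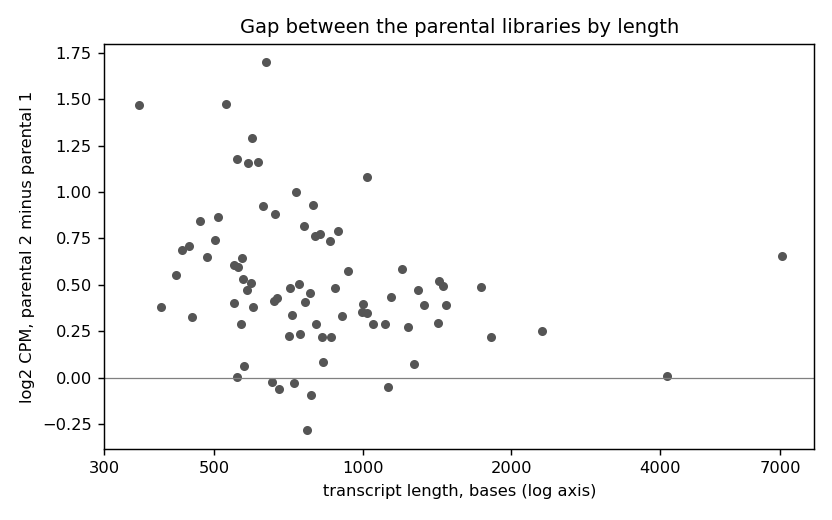
Log2 CPM of parental 2 minus parental 1 against transcript length in bases (log axis) for the 79 tested members, 1 point a gene. Of these, 73 lie above 0, and the 3 largest gaps belong to genes below the median length of 748 bases.

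RPS4X, the X-linked form of a small-subunit protein, was the member with the largest positive fold change. Its level was 879 and 1155 CPM in the parental libraries and 1538 and 1608 CPM in E3 and C10. Levels in DIP2C+/- clones were 698 CPM (H9-A4), 1199 CPM (A9-A12), 1656 CPM (F6-A7), 1865 CPM (A6-C9) and 2138 CPM (G1-A5). Thus 6 of 7 clones were above both parental libraries and H9-A4 was below both, the lowest of all 9. The log2 fold change of all clones was 0.59 (SE 0.34, edgeR adjusted p = 0.472), and an exact permutation test over the libraries gave p = 0.222. With H9-A4 left out, RPS4X was the only member called in all clones against parental RKO, at 0.71 (adjusted p = 0.0495), in a fit that called 8.95% of all genes. In a fit of only DIP2C-/- and parental libraries it was at 0.62 (adjusted p = 0.0331), where 12.6% of all genes were called. Its range over the 9 libraries was 3.06-fold, the third widest by SD among the members.

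RPL41, RPS24, RPL29, RPL36A and RPL36 were singled out after their values were seen. RPL41 encodes the smallest protein of the large subunit. It was at 566 and 818 CPM in parental RKO, 314 and 453 CPM in DIP2C-/- and 520 to 794 CPM in DIP2C+/- clones. The DIP2C-/- clones thus lay below every other library, as they also did for RPL13, RPS9 and RPS26. The share of all genes with this order is not given here. RPL41 had a log2 fold change of -0.85 in DIP2C-/- (SE 0.26, edgeR adjusted p = 0.318). Between DIP2C+/- and DIP2C-/- it was 0.68 (SE 0.22, edgeR adjusted p = 0.878). RPS24, a small-subunit protein mutated in Diamond-Blackfan anaemia, was at 988 and 1371 CPM in parental RKO and 707 and 815 CPM in DIP2C-/- clones, and in the DIP2C+/- clones it ranged from 756 to 1224 CPM. Its log2 fold change in DIP2C-/- was -0.63 (SE 0.24, adjusted p = 0.355). In the fit of only DIP2C-/- and parental libraries RPL41 (-0.87, adjusted p = 0.0281) and RPS24 (-0.64, adjusted p = 0.0403) were called, with RPS4X the 3 members (3.80%) called there against 12.6% of all genes.

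RPL29, a large-subunit protein, had the lowest adjusted p of all members in all clones against parental RKO. It was at 680 and 964 CPM in parental RKO, 422 and 598 CPM in DIP2C-/- and 579 to 681 CPM in DIP2C+/- clones. G1-A5, at 681 CPM, overlapped with parental 1, and the other clones were below both parental libraries. The log2 fold change was -0.49 (SE 0.16, edgeR adjusted p = 0.304), and -0.22 without parental 2. RPL36A, another large-subunit protein, was at 138 and 243 CPM in parental RKO and 112 to 161 CPM in the clones. Its log2 fold change was -0.56 (SE 0.20, adjusted p = 0.318). With libraries left out it ran from -0.91 without parental 1 to -0.07 without parental 2 and H9-A4. The latter was a setting chosen after the data were seen.

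RPL7L1 was the single member (1.27%) with all 7 clones above both parental libraries, against 5.41% of all genes. RPL7L1 takes part in pre-ribosome assembly and resembles RPL7. It was at 140 and 141 CPM in parental RKO, 195 and 174 CPM in E3 and C10, and 145 to 175 CPM in the DIP2C+/- clones, lowest in H9-A4 and highest in A6-C9. Its log2 fold change was 0.21 in all clones (SE 0.12, edgeR adjusted p = 0.484) and 0.39 in DIP2C-/- (SE 0.15, adjusted p = 0.355). RPL7 and RPL36 were the 2 members (2.53%) with all clones below both parental libraries, against 5.54% of all genes. RPL7, a large-subunit protein, was at 3148 and 3308 CPM in parental RKO, 2209 and 2647 CPM in DIP2C-/- and 2139 to 3020 CPM in DIP2C+/- clones. Its log2 fold change was -0.35 (SE 0.14, edgeR adjusted p = 0.332), and the exact permutation p of 0.0278 is the smallest that 2 against 7 libraries allow. RPL36, another large-subunit protein, was at 417 and 419 CPM in parental RKO and 286 to 385 CPM in the clones (log2 fold change -0.30, SE 0.14, adjusted p = 0.395, exact permutation p = 0.0556). The exact p of RPL7L1 was 0.0833. These genes were chosen for not overlapping, so their single-gene p-values are a description.

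**Figure D5:**
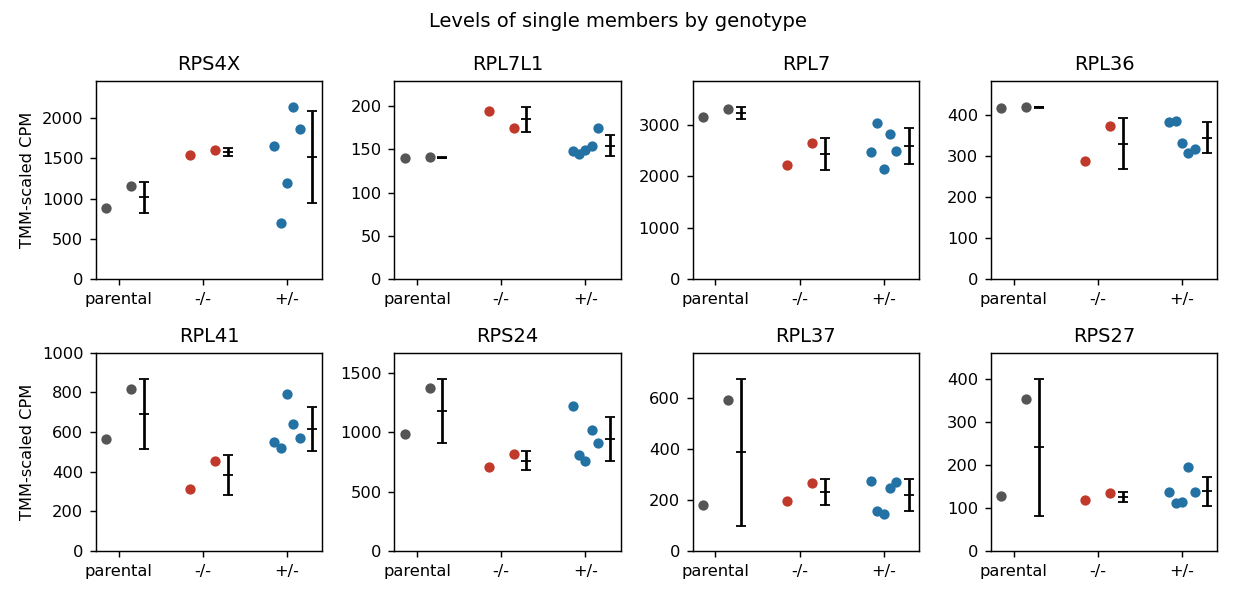
TMM-scaled CPM of 8 members in parental RKO, DIP2C-/- and DIP2C+/- libraries, 1 point a library, with mean and SD beside the points, each axis starting at 0. RPL7L1 is higher and RPL7 and RPL36 are lower in every clone than in both parental libraries, and RPL37 and RPS27 are highest in parental 2.

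RPL37 and RPS27, with RPS4X the most variable members, followed a single library. RPL37, a zinc-binding large-subunit protein, was at 182 and 592 CPM in parental RKO, 196 and 268 CPM in DIP2C-/- and 147 to 275 CPM in DIP2C+/- clones. RPS27, a zinc-binding small-subunit protein, was at 128 and 354 CPM, 118 and 135 CPM, and 112 to 195 CPM. In both genes parental 2 was above all other libraries, and parental 1 lay among the clones. The log2 fold changes of all clones, -0.80 for RPL37 (SE 0.36, edgeR adjusted p = 0.374) and -0.83 for RPS27 (SE 0.30, adjusted p = 0.319), became 0.29 and 0.08 without parental 2. Over the 9 libraries the SD of log2 CPM was 0.113 to 0.603 among the members, with a median of 0.257. The median was 0.344 over all genes tested and 0.204 over the 2437 genes averaging 100 CPM or more. RPS7, RPL13, RPS10, RPS6 and RPSA had the smallest SD, and RPS7 ranged from 881 to 1061 CPM.

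Members with functions outside the core of the subunits did not pass the test either. RPL5 and RPL11, which form the particle with 5S RNA, had log2 fold changes of -0.11 and -0.20 in all clones (SE 0.17 and 0.16). RPL23 had -0.42 (SE 0.28), with parental 2 at 1186 CPM and the other libraries at 488 to 834 CPM. The 4 proteins of the P stalk, RPLP0, RPLP1, RPLP2 and RPL12, were between 0.00 and 0.15 in all clones. RPLP0 ranged from 3018 CPM in parental 1 to 4663 CPM in G1-A5. RPS6, the substrate of S6 kinase, was at 2003 to 2548 CPM, and RPSA, also known as a laminin receptor, at 2239 to 2845 CPM.

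As 64, 50 and 56 of 79 members did, all 9 proteins listed around the exit tunnel of the large subunit (RPL4, RPL17, RPL19, RPL22, RPL23A, RPL26, RPL31, RPL35 and RPL39) had log2 fold changes below 0 in each comparison with parental RKO, with medians of -0.42 in DIP2C-/-, -0.24 in DIP2C+/- and -0.22 in all clones, and 0 of 9 passed the test. Against parental 1 alone the direction was not uniform. The mean CPM of all clones was above parental 1 for RPL19 (804 against 721), RPL22, RPL23A, RPL26 and RPL31. It was below parental 1 for RPL4, RPL17 (948 against 1089), RPL35 and RPL39. RPL23A (-0.50 in all clones, SE 0.18) was at 555 and 1024 CPM in the parental libraries and 443 to 628 CPM in the clones. The 5 proteins listed along the mRNA channel of the small subunit (RPS2, RPS3, RPS23, RPS26 and RPS28) were all higher in DIP2C+/- than in DIP2C-/- clones, with a median of 0.36, in a comparison in which 63 of 79 members were higher. Of these 5, 4 (80.0%) had an unadjusted p under 0.05, against 8.86% of the tested members and 5.57% of all genes. None passed after adjustment (edgeR, lowest adjusted p = 0.878). The list was chosen with earlier results of these data known. RPS2 was at 1010 and 1165 CPM in DIP2C-/- clones and 1327 to 1637 CPM in DIP2C+/- clones. The parental libraries, at 1097 and 1637 CPM, lay 1 in each range.

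The paralog-type members that were tested varied against their relatives. As CPM not corrected for length, RPL22L1 was 63.4% and 77.8% of RPL22 in parental RKO, 65.5% and 70.0% in DIP2C-/- and 59.4% to 73.0% in DIP2C+/- clones. RPL26L1 was 3.78% and 3.33% of RPL26 in parental RKO and 3.72% and 3.07% in DIP2C-/- clones. Among DIP2C+/- clones the ratio was 2.40% (H9-A4), 3.17% (F6-A7), 3.47% (G1-A5), 6.19% (A6-C9) and 6.42% (A9-A12), so the last pair stood above the other libraries. RPL7L1 was 4.45% and 4.26% of RPL7 in parental RKO, 8.81% and 6.57% in DIP2C-/- and 4.79% to 7.05% in DIP2C+/- clones. All clones were above both parental libraries in this ratio, whose parts were both chosen above. RPL3, a core large-subunit protein, was at 1718 and 2382 CPM in parental RKO and 2046 to 2911 CPM in the clones (log2 fold change 0.26, SE 0.18). RPL10 (0.06, SE 0.18) and RPL39 (-0.22, SE 0.19) showed no larger difference.

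Related genes outside the choice by symbol were measured alongside. RPS27L, a relative of RPS27 and a known p53 target, was at 57.9 and 65.9 CPM in parental RKO, 98.3 and 99.8 CPM in DIP2C-/- and 70.8 to 168 CPM in DIP2C+/- clones, all above both parental libraries (log2 fold change 0.69, SE 0.29, edgeR adjusted p = 0.347). FAU, which encodes a ribosomal protein fused to a ubiquitin-like protein, was highest in parental 2, at 298 CPM, as RPL36AL was at 55.4 CPM. GNB2L1, which encodes the small-subunit scaffold RACK1, was at 1390 and 1734 CPM in parental RKO and 1412 to 1975 CPM in the clones. MYC was at 714 and 754 CPM in parental RKO and 1000 to 1344 CPM in the clones, with no overlap. As with RPS27L, all 7 clones were above both parental libraries, which held for 5.41% of all genes. The log2 fold change of MYC was 0.66 (SE 0.15, edgeR adjusted p = 0.171). DESeq2's Wald test, which called 1.96% of all genes, gave MYC an adjusted p of 0.00655.

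Other genes of the translation machinery were described by the same counts. Of 76 genes for mitochondrial ribosomal proteins, 38 were higher and 38 lower in all clones than in parental RKO, with a median of 0.00. In DIP2C-/- clones 28 were higher and 48 lower (median -0.10), and in DIP2C+/- clones 42 and 34 (median 0.03). Their summed share was 0.526% and 0.541% in parental RKO and 0.486% to 0.535% in the clones. Of 30 ribosome biogenesis factors, 16 were higher and 14 lower in all clones (median 0.03), 12 and 18 in DIP2C-/- (median -0.08) and 17 and 13 in DIP2C+/- (median 0.06). Of 14 genes of RNA polymerase I, which transcribes the large ribosomal RNA precursor, 8 were higher and 6 lower in all clones (median 0.02), 5 and 9 in DIP2C-/- (median -0.08) and 9 and 5 in DIP2C+/- (median 0.06). Of 16 translation factors and other genes listed as starting with the pyrimidine motif, 10 were higher and 6 lower in all clones (median 0.10), 5 and 11 in DIP2C-/- (median -0.06) and 12 and 4 in DIP2C+/- (median 0.17).

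Of 10 noncoding hosts of small nucleolar RNAs, 3 were higher and 7 lower in all clones (median -0.24), 1 and 9 in DIP2C-/- (median -0.54) and 4 and 6 in DIP2C+/- (median -0.16). Of 8 regulators of ribosomal protein synthesis, 3 were higher and 5 lower in all clones (median -0.03), 3 and 5 in DIP2C-/- (median -0.03) and 2 and 6 in DIP2C+/- (median -0.04). None of the genes in these lists passed an adjusted p of 0.05 in any comparison with parental RKO by edgeR. In all clones against parental RKO, where 13.4% of all genes had an unadjusted p under 0.05, this held for 2 mitochondrial ribosomal protein genes (2.63%), 1 biogenesis factor (3.33%), 1 polymerase I gene (7.14%) and 1 translation factor (6.25%). It also held for 2 of the small nucleolar RNA hosts (20%) and 2 of the regulators (25.0%). In DIP2C-/- clones, where 12.7% of all genes did, the counts were 5, 2, 0, 0, 3 and 1 in the same order, and in DIP2C+/- clones, where 11.6% did, they were 2, 1, 1, 3, 1 and 1.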

How the data were processed

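Files deposited by the authors give estimated counts for each gene of a library. Sequencing was on an Ion Proton instrument, and the submitters' processing notes name TopHat2 2.0.4, Cufflinks 2.2.1 and hg19. How Cufflinks output became these counts is not given in the sources used here, nor is the handling of reads that match several genes. Low values (below 20) were whole multiples of 1 step per library for 98.0% to 98.5% (tolerance 0.01), corresponding to 17134472 to 24863895 reads. Values were rounded, filtered with filterByExpr, scaled by TMM and fitted with 1 coefficient per genotype over 9 libraries in edgeR 4.0.16 (R 4.3.3), using the quasi-likelihood F test with Benjamini-Hochberg adjustment over 15532 genes. SE was taken as |log2 fold change| over the root of F. Single-library log2 CPM used a prior count of 2. Scripts were tested on simulated data.

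Transcript length was the median over protein-coding GENCODE 44 transcripts on GRCh37, which held 83 of the 84 symbols. Pairs of libraries of 1 genotype differed by chi-square values per degree of freedom of 146 to 470 over the members, so each was counted as 1 replicate. No batch or date is given in the sources used here. The members and lists were chosen with earlier results of these data known. Named genes were the paralog-type members and relatives, functional members, called members, the 3 most variable and the 5 highest and lowest per kilobase, with others named after their values were seen. Some genes are not reported here by name. DESeq2 1.42.0, other scalings, filters and left-out libraries were alternatives. Statistics used Python 3.11.15 and scipy 1.17.1.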

Additional observations from a re-analysis of the deposited data

Results flagged for a closer look

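RPS27A, which encodes a small-subunit protein fused to ubiquitin, was at 696 CPM in clone G1-A5, far above the other DIP2C+/- clones at 284 to 361 CPM. The gap to the nearest clone was 0.813 of the range of the group, beyond Dixon's 95% critical value of 0.71 for 5 samples. It was the only 1 of 41 values tested in this way that stood apart, and chance sets apart about 1 in 20 groups. In the other genotypes RPS27A was at 507 and 475 CPM (parental RKO) and 400 and 417 CPM (DIP2C-/-).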

How the results depend on the processing

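No paired analysis was possible because the clones carry no replicate numbers shared across genotypes. Fitting only the groups compared moved the members called in DIP2C-/- from 0 to 3, and no other setting of scaling, filter or tool changed a count of members called. Leaving out 1 library gave 0 members called in 3 comparisons and 0 to 1 in all clones, the 1 without H9-A4. It moved the median log2 fold change between -0.41 and 0.0138 in DIP2C-/-, -0.24 and 0.21 in DIP2C+/-, -0.29 and 0.16 in all clones and 0.02 and 0.25 between the knockout genotypes. The extremes against parental RKO came without parental 1 and without parental 2. Without parental 2 and H9-A4 together, a setting chosen after seeing the data, these medians were 0.01, 0.25 and 0.17. The difference in summed share ran from -1.73 to 0.241, -1.38 to 0.589, -1.48 to 0.489 and 0.184 to 0.513 points when libraries were left out in turn, and from -0.820 to -0.738, -0.468 to -0.178, -0.545 to -0.349 and 0.270 to 0.599 points with other denominators or members. Single genes reversed sign only among these left-out fits, RPL37 (-1.41 to 0.36) and RPS27 (-1.39 to 0.12) in all clones and RPS4X (-0.22 to 0.14) between the knockout genotypes. The cause was not tested. The effect of depth was not tested.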
